A study of Mus musculus with 4 samples.

Results

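The genes described here encode the proteins of the mitochondrial ribosome, the particle that translates the few messages made from mitochondrial DNA. They were chosen by symbol, as every single-gene row whose symbol begins with Mrpl or Mrps followed by a digit in both deposited tables. Their mean over the 4 libraries had to be at least 1 FPKM (fragments scaled to transcript length and to library size). Rows that join several genes were left out and are described further below. The rule found 73 genes, among 22144 gene symbols held by both tables and 10603 that passed the same level filter. All 73 passed it, the lowest at a mean of 11.9 FPKM, so that no member stood near the limit and none was left out by it. By role, 48 belong to the large subunit, 24 to the small subunit, and Mrps36 is now known as a component of the 2-oxoglutarate dehydrogenase complex.

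RNA-seq was made from induced regulatory T (iTreg) cells of C57BL/6 mice that were MSC KO (2 libraries, numbered 1 and 2) or WT (2 libraries, likewise numbered). The deleted gene, Msc, encodes musculin, a transcription factor of the basic helix-loop-helix class. Sorted naive T cells of both genotypes were cultured for 3 days on plate-bound anti-CD3/CD28 at 1 µg/ml with TGF-beta at 2 ng/ml, conditions under which naive T cells turn on Foxp3. The first of the authors' tables holds MSC KO 1 with WT 1 and the other MSC KO 2 with WT 2, and pairs of differences or medians below follow that order. The labels give neither the age of the mice nor the form of the deletion. They do not say whether libraries of a genotype came from separate mice or cultures, so p-values measure only the spread between these libraries, which may be technical.

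The targeted gene went against the labels. Msc was at 0.331 and 0.939 FPKM in the libraries labelled MSC KO, against 0.0243 and 0.0178 FPKM in the libraries labelled WT, higher in both libraries labelled MSC KO. Which part of the gene was deleted is not in the labels, and the tables give 1 value per gene. Every direction below is therefore that of the libraries labelled MSC KO relative to those labelled WT.

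The mitochondrial ribosome descends from that of the bacterial ancestor of mitochondria. Its small subunit reads the message and its large subunit joins the amino acids, while the RNA core of the particle is transcribed from mitochondrial DNA and all of its proteins are encoded in the nucleus, made in the cytosol and imported. Many of these proteins have a bacterial counterpart, and others are found only in mitochondria. Its products are core subunits of the respiratory chain and of ATP synthase, and activated T cells are known to enlarge their mitochondria and to raise mitochondrial translation as they leave quiescence.

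Depth was estimated from the smallest steps between low values at 28100000 and 34300000 fragments in the libraries labelled MSC KO and at 25500000 and 35200000 in WT. The member with the fewest estimated fragments in a library, Mrpl41, had 227, a counting error of 6.64%, and the median over members and libraries was 1984. All T cell markers examined were present, with Cd4 at 166 and 209 FPKM in MSC KO and 173 and 189 FPKM in WT. All 6 myeloid markers and 3 of 4 B cell markers stayed under 1 FPKM in every library. The summed myeloid markers reached 0.741 and 1.08 FPKM in MSC KO and 0.89 and 0.577 FPKM in WT. The other B cell marker, Cd79b, was at 4.63 and 4.90 FPKM in MSC KO libraries against 6.67 and 5.94 FPKM in WT. Of the CD8 T cell markers, Cd8b1 was at 8.56 and 19.1 FPKM in MSC KO and 9.75 and 9.75 FPKM in WT, highest in MSC KO 2, and Cd8a was at 0.571 and 0.658 FPKM in MSC KO libraries against 1.58 and 1.90 FPKM in WT. The defining gene of the induced cell type, Foxp3, was at 2.97 and 7.05 FPKM in MSC KO libraries, against 62.8 and 66.0 FPKM in WT. Other iTreg markers examined did not share this fall. Ctla4 was higher in MSC KO in both tables. Its MSC KO level was 217 FPKM beside 112 FPKM for WT in the first table, and 188 beside 120 FPKM in the other. Il2ra was higher in MSC KO in the first table, 364 beside 302 FPKM, and lower in the other, 307 beside 317 FPKM. The 8 cell cycle genes examined were all lower in MSC KO in both tables, with sums of 985 and 994 FPKM against 1100 and 1150 FPKM in WT, and the 8 early stress genes summed to 117 and 99.4 FPKM against 85.6 and 85.3 FPKM. Of the 6 early stress genes that passed the filter, 4 were higher and 1, Jun, was lower in both tables. The difference between the sums rested largely on Atf3, at 31.5 and 20.6 FPKM in MSC KO libraries against 6.83 and 6.79 FPKM in WT. The part of these shifts in the values below was not tested. In bulk RNA, fewer cells of a type and less RNA per cell cannot be told apart.

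Transcripts of the mitochondrial ribosome were present at moderate to high levels in both genotypes and kept nearly the same order in the MSC KO and WT libraries of each table. The members spanned 32.3-fold in mean level, with a median of 55.1 FPKM. A mean above 100 FPKM was reached by 16 members and a mean under 20 FPKM by 12. Their summed level was 5690 and 5145 FPKM in MSC KO libraries, against 5312 and 5380 FPKM in WT, which was 0.686% and 0.627% of the FPKM in rows with a gene symbol in MSC KO and 0.664% and 0.67% in WT. The WT sums thus lay between the sums of the libraries labelled MSC KO. Spearman's rho of the levels across members was 0.98 between MSC KO 1 and WT 1 and 0.98 between MSC KO 2 and WT 2, a description over 73 genes that share their libraries.

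The highest member was Mrpl52, a mitochondria-specific large subunit protein, at 430 and 388 FPKM in MSC KO libraries against 359 and 355 FPKM in WT. It was followed by Mrps16, counterpart of bacterial S16, at 325 and 267 FPKM in MSC KO and 293 and 300 FPKM in WT. Mrpl33, counterpart of bacterial L33, came next at 308 and 231 FPKM in MSC KO libraries against 222 and 221 FPKM in WT. Mrpl52 stood above Mrps16, and Mrps16 above Mrpl33, in each of the 4 libraries, and the MSC KO values of Mrps16 enclosed those in WT. Mrps21, counterpart of bacterial S21, stood at 228 and 205 FPKM in MSC KO and 220 and 234 FPKM in WT, below Mrpl33 in 3 of the 4 libraries and above it in WT 2.

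At the low end, Mrps25 was at 12.3 and 10.9 FPKM in MSC KO and 12.4 and 11.9 FPKM in WT. Mrpl35, counterpart of bacterial L35, was at 14.9 and 14.0 FPKM in MSC KO and 13.5 and 13.1 FPKM in WT. Mrpl19 was at 15.6 and 15.1 FPKM in MSC KO libraries against 14.1 and 14.1 FPKM in WT, and Mrpl17, a protein beside the exit of the peptide tunnel, at 15.2 and 14.9 FPKM against 14.5 and 14.4 FPKM. Mrpl35 was below both of these in each of the 4 libraries, whereas Mrpl19 was above Mrpl17 in both MSC KO libraries and below it in both WT libraries. Short transcripts tended to stand higher on this per-length scale, with a Spearman's rho of -0.53 between mean FPKM and the median coding transcript length over 73 genes, from 405 bases in Mrps21 to 6073 bases in Mrps25. The listed locus of Mrps25 overlaps that of Nr2c2, that of Mrpl19 overlaps AW146020, and those of 5 other members (Mrpl24, Mrpl41, Mrpl48, Mrpl49 and Mrps27) overlap another gene in both tables, so that reads could have been split between them and these levels are uncertain.

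**Figure D1:**
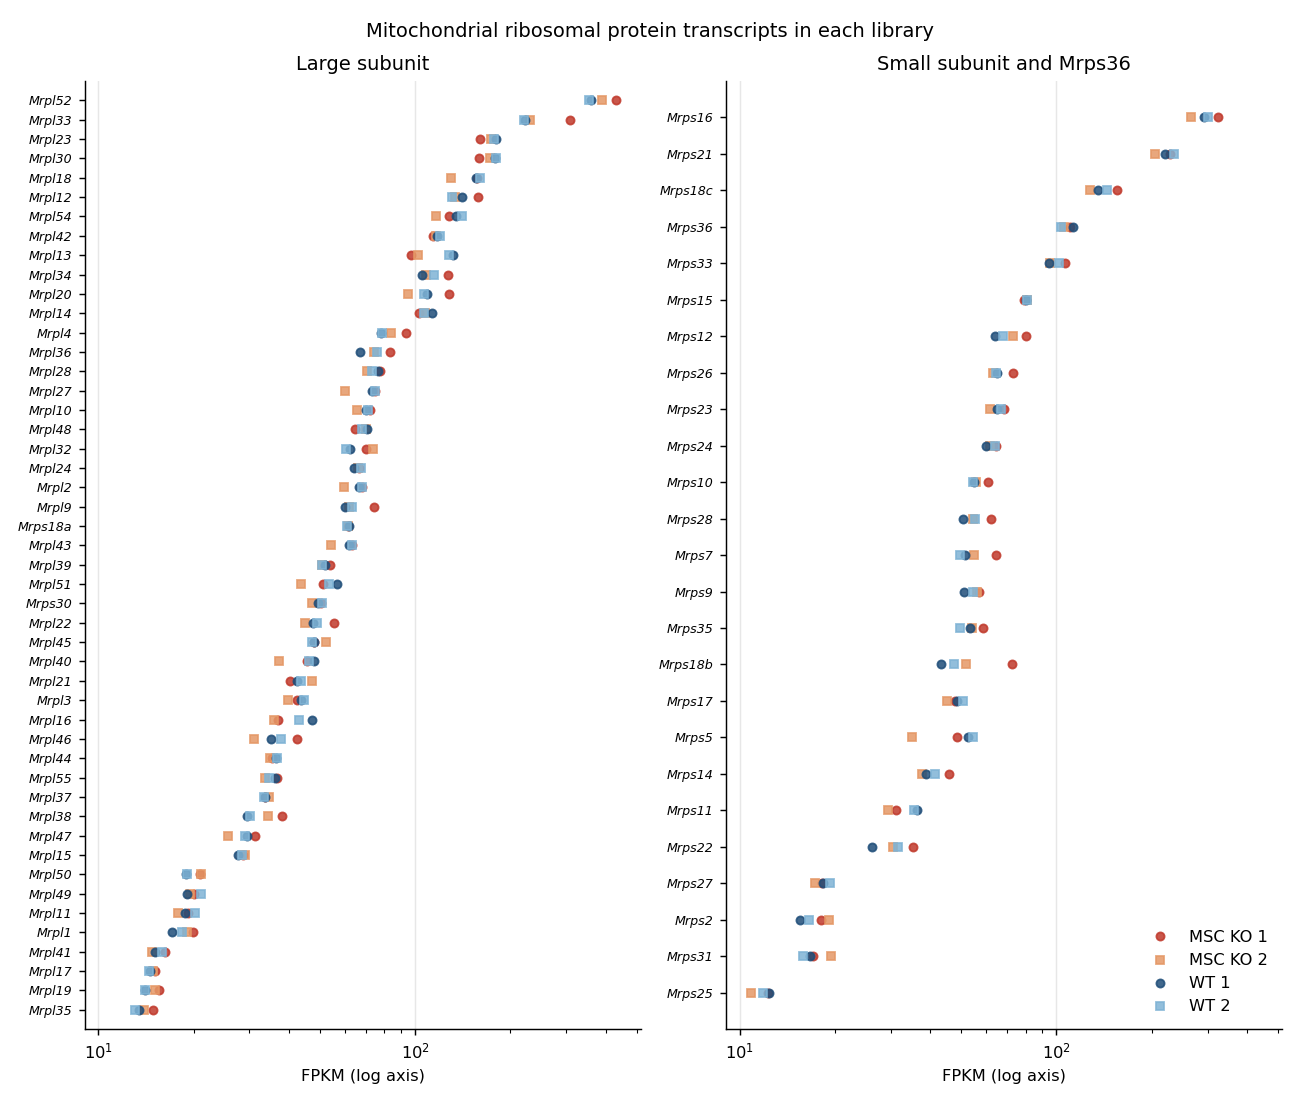
FPKM of each of the 73 members in the 4 libraries on a log axis, large subunit on the left and small subunit with Mrps36 on the right, sorted by mean level; each point is 1 library. Levels run from a mean of 11.9 FPKM in Mrps25 to 383 FPKM in Mrpl52, and for most members the 4 points lie close together, with Mrps18b, Mrps5 and Mrpl33 among those with a library set apart.

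No member passed the test of a difference between the libraries labelled MSC KO and those labelled WT. In limma over log2(FPKM + 1) with the table as a block, 0 of 73 members passed an adjusted p of 0.05, where 0.00943% of all 10603 genes did so, a single gene, the small RNA Rnu73b, at 110 and 135 FPKM in MSC KO and listed at 0 in both WT libraries. At an unadjusted p under 0.05, 2 members were lower in MSC KO, Mrpl13 and Mrpl16, and none higher, against 11.2% of all genes lower and 9.2% higher. That count of members was 5 with no replicate block, 6 with no filter on low values and 5 with quantile normalization. The shares of all genes under these settings are not given, so no rise in the members is read from these counts. The lowest adjusted p among members was 0.19 for Mrpl13 and the highest was 0.999 for Mrpl46, both by limma with Benjamini-Hochberg adjustment over all genes. The authors' own test of 1 library against 1, in the authors' deposited table, called 0 members in either table, against 0.634% of genes in the first table and 0.558% in the other. In the authors' deposited tables the lowest p among members was 0.108 for Mrps18b in the first table and 0.101 for Mrps5 in the other, each with a q of 0.999.

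The differences were small as well as uncalled. Over members the median difference of MSC KO from WT was 0.01 on the log2(FPKM + 1) scale, at 0.06 in the first table and -0.04 in the other, beside -0.02 over all genes tested. The middle 50% of members spanned 0.18, where all genes spanned 0.34 and the 6105 genes at 10 FPKM or more spanned 0.30. The sets most like them were narrower, at 0.09 for oxidative phosphorylation subunits and 0.06 for cytosolic ribosomal protein genes. Within 0.25 of 0 in each of the tables lay 49 members (67.1%), beside 44.1% of all genes and 48.5% of genes at 10 FPKM or more, and 0 members were 2-fold apart in either table. The 95% interval of the difference had a median half-width of 0.30, from 0.26 to 0.57. It excluded 0 for 2 members and lay within 1 log2 unit of 0 for all 73.

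Direction differed between the tables for many members. Of the 73, 15 (20.5%) were lower in MSC KO in both tables, against 37.5% of all genes, and 23 (31.5%) were higher in both, against 31.2%. The other 35 (47.9%) had opposite signs, against 30.9% of all genes and 30.1% of genes at 10 FPKM or more. Among the sets most like them, 38 of 76 oxidative phosphorylation subunits and 18 of 77 cytosolic ribosomal protein genes had opposite signs. These shares were not tested against each other. With the libraries rescaled to the same sum, the split of the members turned to 29 lower and 17 higher. That over all genes turned to 43.5% lower and 26.5% higher, so no direction is given for the members. Both MSC KO values lay below both WT values for 14 members (19.2%, against 32.5% of all genes) and above both for 21 (28.8%, against 26.6%). A shift of at least 0.25 in the same direction in both tables was found for 2 members lower, where 11.1% of all genes had one, and for 0 higher, where 9.94% had one.

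**Figure D2:**
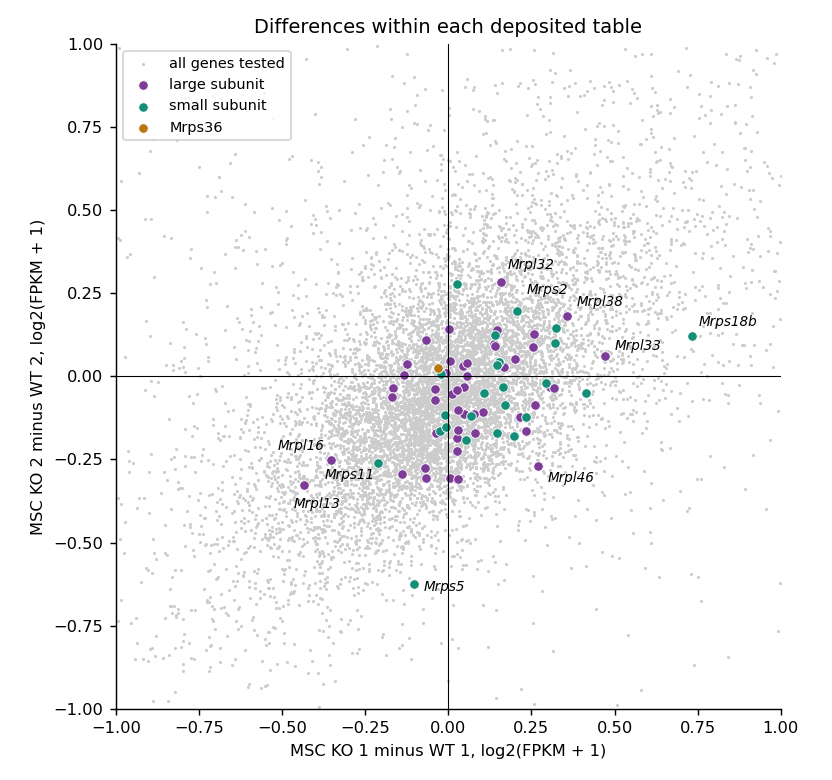
Difference of MSC KO from WT in the first table (x axis) and the other (y axis), in log2(FPKM + 1), for members by subunit and for all genes tested in grey; 811 of 10603 genes lie outside the axes. Members sit near the origin, with Mrpl13 and Mrpl16 at the lower left and Mrps18b and Mrps5 each apart in 1 table only.

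The members lower in both tables that rank first by the smaller of their table differences came from both subunits. Mrpl13 (chr15:55365649-55388867, mm9), counterpart of bacterial L13, a protein that joins the large subunit early in assembly, was at 97.0 and 102 FPKM in MSC KO libraries against 131 and 128 FPKM in WT. The groups did not overlap, and the difference was -0.38 ± 0.09 (SE, 95% interval -0.66 to -0.10) with an adjusted p of 0.19 in limma. Mrpl16 (chr19:11844904-11849436), counterpart of bacterial L16, which lies near the transfer RNA sites, was at 36.8 and 36.0 FPKM in MSC KO libraries against 47.3 and 43.0 FPKM in WT. Here too the groups were apart, by -0.30 ± 0.09 (SE, 95% interval -0.58 to -0.02, limma adjusted p = 0.231).

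Mrps11, counterpart of bacterial S11 on the platform of the small subunit, was at 31.2 and 29.5 FPKM in MSC KO libraries against 36.2 and 35.5 FPKM in WT. Mrpl51, a mitochondria-specific protein, was at 51.3 and 43.5 FPKM in MSC KO libraries against 56.5 and 53.6 FPKM in WT. Mrpl54, also mitochondria-specific, was at 128 and 116 FPKM in MSC KO libraries against 135 and 141 FPKM in WT. All 3 had both MSC KO values below both WT values, with differences of -0.24, -0.22 and -0.17 that did not pass the test (limma adjusted p of 0.278, 0.329 and 0.422). Ranking by the smaller table difference favours such groups, which 32.5% of all genes also had. Mrps5, counterpart of bacterial S5 near the message entry, was at 48.7 and 35.0 FPKM in MSC KO libraries against 52.4 and 54.5 FPKM in WT. Its value in MSC KO 2 stood apart from the other 3 libraries, with table differences of -0.10 and -0.63 (limma adjusted p = 0.331).

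Ranked likewise on the higher side, Mrps2, counterpart of bacterial S2, was at 18.1 and 19.2 FPKM in MSC KO libraries against 15.5 and 16.6 FPKM in WT. Its differences were nearly equal in the tables, at 0.21 and 0.20. Mrpl32, which in mouse and yeast is cut by the m-AAA protease before it joins the ribosome, was at 69.8 and 73.6 FPKM in MSC KO libraries against 62.5 and 60.3 FPKM in WT. Mrps7, counterpart of bacterial S7 in the head of the small subunit, was at 64.5 and 55.0 FPKM in MSC KO libraries against 51.3 and 49.6 FPKM in WT. Mrpl50, a mitochondria-specific protein, was at 21 and 21.1 FPKM in MSC KO libraries against 18.9 and 19.0 FPKM in WT, the closest replicates of this set. None of these groups overlapped, and none passed the test, the limma adjusted p being 0.312, 0.313, 0.313 and 0.434. The ranking favours groups that do not overlap, and 26.6% of all genes had both MSC KO values above both WT values. Mrpl52, given above, differed by 0.19 ± 0.09 (SE, limma adjusted p = 0.33).

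The large subunit as a whole had a median difference of 0.00 over 48 genes (0.04 and -0.04 in the tables), with 10 lower and 15 higher in both. For the small subunit it was 0.05 over 24 genes (0.15 and -0.05), with 5 lower and 8 higher in both. Proteins with a bacterial family (47 genes) had a median of 0.02 and those without one (25 genes) a median of 0.00. The medians of both subunits and both classes thus lay within 0.05 of 0, while each moved by more than that between the tables.

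The structural groups that follow were picked after their values had been seen and carry no test. In the central protuberance, the crest of the large subunit, 6 members had a median of 0.02 with the first libraries and -0.29 with the second. Mrpl18 was at 157 and 130 FPKM in MSC KO and 156 and 161 FPKM in WT, Mrpl27 at 74.9 and 60.3 FPKM and 73.4 and 74.9 FPKM, and Mrpl40 at 45.6 and 37.3 FPKM and 47.9 and 46.3 FPKM. In all 3 the second MSC KO library was the lowest. Mrpl38, another protein of the crest, was at 38.0 and 34.4 FPKM in MSC KO libraries against 29.4 and 30.2 FPKM in WT, apart in the other direction (0.27 ± 0.10, SE, limma adjusted p = 0.274). Mrpl46 split between the tables, at 42.5 and 31.1 FPKM in MSC KO, which enclosed 35.0 and 37.7 FPKM in WT. Mrpl48, also of the crest, was at 64.4 and 69.9 FPKM in MSC KO and 70.4 and 68.1 FPKM in WT, lowest in MSC KO 1.

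Beside the exit tunnel, Mrpl45, which tethers the ribosome to the inner membrane, was at 47.9 and 52.4 FPKM in MSC KO and 47.8 and 47.3 FPKM in WT. In the stalk that recruits translation factors, Mrpl12, counterpart of bacterial L7/L12, was at 157 and 133 FPKM in MSC KO and 140 and 131 FPKM in WT, with overlapping groups. Mrpl44, which has a ribonuclease III-like fold, was at 35.3 and 34.8 FPKM in MSC KO and 36.3 and 36.6 FPKM in WT. These 3 proteins of distinct sites of the large subunit differed by 0.10 or less in size. Mrpl20, counterpart of bacterial L20, an early assembly protein, was at 128 and 95.3 FPKM in MSC KO, to either side of 109 and 107 FPKM in WT.

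In the small subunit, Mrps12, counterpart of bacterial S12 at the decoding centre, was at 80.2 and 73.0 FPKM in MSC KO libraries against 64.0 and 68.0 FPKM in WT. The groups did not overlap, and the difference of 0.21 ± 0.11 (SE) had an adjusted p of 0.366 in limma. Mrps27, a pentatricopeptide repeat protein, was at 18.2 and 17.3 FPKM in MSC KO and 18.3 and 19.4 FPKM in WT. Mrps30, a large subunit protein despite its symbol, was at 50.5 and 47.3 FPKM in MSC KO and 49.5 and 50.8 FPKM in WT, and Mrps36 was at 111 and 105 FPKM and 113 and 104 FPKM, each with overlapping groups.

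The 3 Mrps18 genes encode relatives of a single bacterial protein, S18, and differed from each other in how their libraries behaved. Mrps18a, whose product sits in the large subunit, was flat at 61.4 and 61.5 FPKM in MSC KO and 61.7 and 61.0 FPKM in WT. Mrps18b (chr17:36047329-36053314, mm9), of the small subunit, was at 72.5 and 51.8 FPKM in MSC KO libraries against 43.2 and 47.5 FPKM in WT. Mrps18c, also of the small subunit, was at 155 and 127 FPKM in MSC KO, which enclosed 135 and 144 FPKM in WT. For Mrps18b the groups did not overlap, but the difference was 0.73 between the first libraries and 0.12 between the second, and the mean of 0.43 ± 0.19 (SE, 95% interval -0.14 to 0.99) had an adjusted p of 0.32 in limma. It had the widest interval of all members.

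Promoters of these genes are printed for the 3 Mrps18 paralogues, which share an ancestor and show different differences, and for Mrps11 and Mrpl32, the first with both MSC KO values below and the other with both above the WT values. Each is the RefSeq window of GRCm38.p6 from 250 bases before to 50 after the annotated start, 5′ to 3′ along the gene; the tables themselves use mm9, and coordinates were not converted. Capitals mark matches, on either strand, to CCGGAAG (ETS factors, GABPA among them), CACGTG (E-box, read by MYC with MAX), NRF1's GCGCA and GCGC with a free base between, and YY1's ATGG and CGGC in 1 run after an A and a free base. The windows lie at chr17:46110754-46111053 (plus strand) for Mrps18a, chr17:35916391-35916690 (minus) for Mrps18b, chr5:100798509-100798808 (plus) for Mrps18c, chr7:78782881-78783180 (plus) for Mrps11 and chr13:14612988-14613287 (minus) for Mrpl32.
Mrps18a: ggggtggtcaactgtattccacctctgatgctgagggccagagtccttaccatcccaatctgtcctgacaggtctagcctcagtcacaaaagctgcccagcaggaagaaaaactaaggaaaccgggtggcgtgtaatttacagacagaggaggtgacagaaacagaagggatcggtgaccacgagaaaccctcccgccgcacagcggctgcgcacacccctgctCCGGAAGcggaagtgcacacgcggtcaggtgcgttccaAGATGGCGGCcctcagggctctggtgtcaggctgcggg
Mrps18b: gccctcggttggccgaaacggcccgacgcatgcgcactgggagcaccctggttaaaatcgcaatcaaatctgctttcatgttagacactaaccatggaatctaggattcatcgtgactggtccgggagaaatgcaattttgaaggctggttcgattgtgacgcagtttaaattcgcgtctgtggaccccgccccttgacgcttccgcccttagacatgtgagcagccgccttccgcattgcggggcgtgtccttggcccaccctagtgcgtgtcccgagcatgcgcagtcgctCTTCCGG
Mrps18c: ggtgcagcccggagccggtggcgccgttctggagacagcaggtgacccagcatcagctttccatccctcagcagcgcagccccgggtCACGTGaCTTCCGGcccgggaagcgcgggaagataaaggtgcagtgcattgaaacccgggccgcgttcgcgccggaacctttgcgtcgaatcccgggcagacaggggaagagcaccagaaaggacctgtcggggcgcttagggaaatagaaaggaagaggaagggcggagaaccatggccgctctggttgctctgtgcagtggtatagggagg
Mrps11: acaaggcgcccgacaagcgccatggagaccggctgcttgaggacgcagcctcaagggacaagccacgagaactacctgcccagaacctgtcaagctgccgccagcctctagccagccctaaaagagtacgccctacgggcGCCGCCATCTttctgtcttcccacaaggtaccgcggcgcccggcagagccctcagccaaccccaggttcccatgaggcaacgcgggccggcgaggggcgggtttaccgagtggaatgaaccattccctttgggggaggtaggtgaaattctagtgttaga
Mrpl32: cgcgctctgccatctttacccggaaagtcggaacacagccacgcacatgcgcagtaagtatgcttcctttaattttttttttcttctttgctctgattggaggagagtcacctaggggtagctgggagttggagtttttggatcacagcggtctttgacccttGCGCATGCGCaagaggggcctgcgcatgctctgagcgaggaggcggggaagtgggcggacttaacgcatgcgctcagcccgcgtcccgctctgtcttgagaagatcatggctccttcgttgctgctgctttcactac

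All 3 Mrps18 windows held the ETS motif, as the capitals show, and those of Mrps18a and Mrps11 held the YY1 motif. Each printed window holds a match, so the printed windows do not stand for the members as a whole. Mrpl16 and Mrps2 rank ahead of Mrps11 and Mrpl32 by the smaller table difference. Their windows held none of the capitalised motifs and are not printed. A window was found for 65 of the 73 members, and Mrpl13, Mrpl38, Mrps28, Mrpl54, Mrps35, Mrpl4, Mrpl15 and Mrpl19 were without one. The ETS motif stood in 23 of the 65 (35.4%), beside 22.2% of 7509 tested genes with a window and 9.93% of 27025 windows in all. The NRF1 motif stood in 12 (18.5%, beside 12.7% and 5.19%), and the YY1 motif in 7 (10.8%, beside 3.66% and 1.41%). At least 1 of these 3 motifs was present in 36 members and 2 or more in 6. The E-box was in 5 members (7.69%, beside 12.4% and 8.09%), and the GC box, GGGCGG, searched on both strands and not capitalised, in 32 (49.2%, beside 71.0% and 38.2%). Matches of different motifs can overlap. Members with and without the ETS motif had median differences of 0.01 and 0.00, those with and without NRF1 0.06 and 0.00, and those with and without YY1 -0.04 and 0.00. A match is a run of letters and not a bound site.

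**Figure D3:**
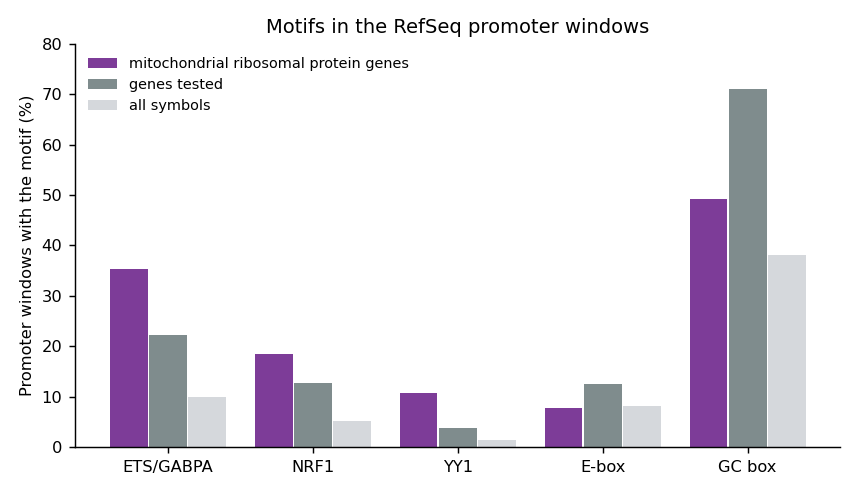
Share of promoter windows (percent) holding each motif, among 65 members, 7509 tested genes and 27025 windows in all. The ETS, NRF1 and YY1 bars of the members are the tallest of their 3, at 35.4%, 18.5% and 10.8%, and for the E-box and the GC box the members' bar is below that of the tested genes.

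Many members start next to another gene. In the GENCODE M21 annotation 31 of 73 members (42.5%) had the start of a protein-coding gene on the opposite strand within 1000 bases of their own, beside 1640 of 9174 tested genes (17.9%) that matched by name. Several neighbours also serve mitochondria. Mrps12 faces Sars2, the mitochondrial seryl-tRNA synthetase, which was at 13.5 and 11.3 FPKM in MSC KO and 12.1 and 11.7 FPKM in WT. Mrpl36 faces Ndufs6 and Mrpl47 faces Ndufb5, both subunits of respiratory complex I.

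For 27 members a neighbour had been tested. Member and neighbour were both lower in both tables in 5 pairs, both higher in 2, and on opposite sides in 2. In the remaining pairs the member or the neighbour had opposite signs in the tables. Of all genes, 37.5% were lower and 31.2% higher in both tables. The same count over neighbour pairs of all tested genes is not given, and a link between neighbours was not tested. Wdfy1, opposite Mrpl44, was at 3.05 and 2.72 FPKM in MSC KO libraries against 6.44 and 7.02 FPKM in WT, while Mrpl44 differed by -0.05. Ncapd2, a condensin subunit opposite Mrpl51, was at 45.6 and 48.9 FPKM in MSC KO libraries against 85.9 and 87.0 FPKM in WT, a larger gap than that of Mrpl51. Mtbp, opposite Mrpl13, was at 9.88 and 10.9 FPKM in MSC KO libraries against 12.9 and 12.2 FPKM in WT, on the same side as Mrpl13. The pairs on opposite sides were Mrpl50 with Zfp189, which was at 1.39 and 1.59 FPKM in MSC KO libraries against 1.72 and 1.85 FPKM in WT, and Mrps5 with Zfp661, which was at 1.34 and 1.5 FPKM in MSC KO libraries against 0.961 and 1.26 FPKM in WT. All of these pairs were named after their values were seen. Mrpl46 and Mrps11 lie next to each other on chromosome 7 with 40 bases between their listed loci (mm9), and showed 0.27 and -0.27 in the tables for Mrpl46 against -0.21 and -0.26 for Mrps11.

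The libraries labelled MSC KO differed from each other more than the WT libraries did. MSC KO 1 minus MSC KO 2 had a median of 0.13 over members, with a range from -0.22 in Mrpl21 to 0.48 in Mrps18b, and MSC KO 1 was above MSC KO 2 in 57 members (78.1%), beside 51.8% of all genes. WT 1 minus WT 2 had a median of -0.03, with a range from -0.26 in Mrps22 to 0.13 in Mrpl16, and WT 1 was above WT 2 in 29 members (39.7%), beside 35.1% of all genes. The middle 50% of members spanned 0.20 between the MSC KO libraries and 0.10 between the WT libraries, and over all genes 0.34 and 0.12. Median levels per library were 61.4 and 54.7 FPKM in MSC KO and 53.2 and 54.5 FPKM in WT, so that MSC KO 1 stood highest.

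**Figure D4:**
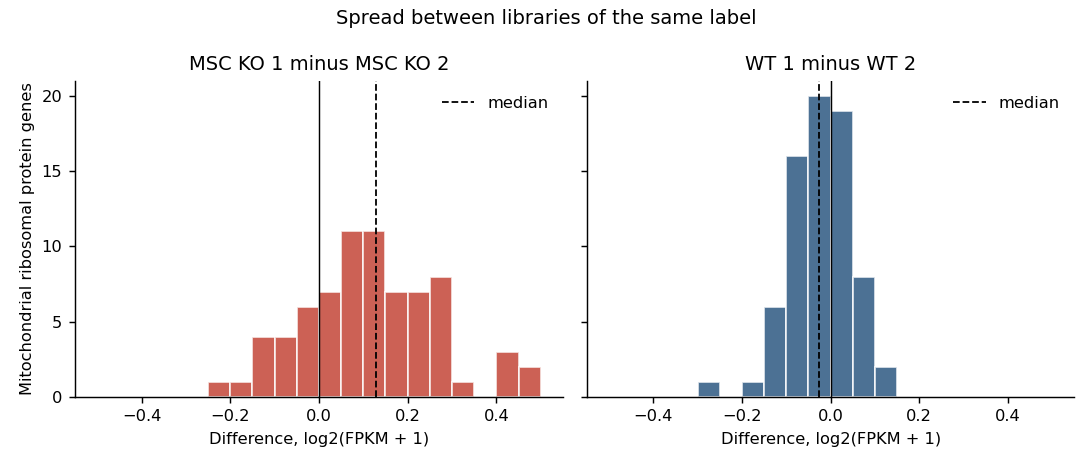
Number of members by the difference between the libraries of the same label, MSC KO on the left and WT on the right, in log2(FPKM + 1); the dashed line is the median. The MSC KO differences centre on 0.13 and reach 0.48, and the WT differences centre on -0.03 and stay between -0.26 and 0.13.

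Which members passed the test depended on which MSC KO library was kept. Fits with 1 MSC KO library have no block, and assume that the lone library varies like the WT pair. Without MSC KO 1, 8 members (11%) passed limma's adjusted p of 0.05, against 21.7% of all genes, and they were Mrpl13, Mrpl18, Mrpl27, Mrpl32, Mrpl40, Mrpl51, Mrps5 and Mrps11. Without MSC KO 2, 8 members (11%) also passed, against 25.2% of all genes, and they were Mrpl4, Mrpl13, Mrpl20, Mrpl33, Mrpl38, Mrpl52, Mrps7 and Mrps18b. Mrpl13 was the only member in both sets, lower each time, at -0.34 without MSC KO 1 and -0.42 without MSC KO 2 (limma adjusted p of 0.0296 and 0.0188). The shares of members called were below those of all genes in both fits.

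Rows that join several genes were not counted as members. The row of Mrps34 with Nme3 was at 118 and 107 FPKM in MSC KO libraries against 136 and 129 FPKM in WT (limma adjusted p = 0.274). The row of Mrps6 with Slc5a3, a myo-inositol transporter, was at 115 and 112 FPKM in MSC KO libraries against 87.4 and 93.2 FPKM in WT (limma adjusted p = 0.218). That of Ccdc142 with Mrpl53 was at 85.3 and 70.6 FPKM in MSC KO and 67.7 and 71.1 FPKM in WT. The first 2 rows had groups that did not overlap, on opposite sides, and the share of each gene within a joined row is not known.

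In the rest of the mitochondrial translation machinery 0 genes of any list passed limma's adjusted p. At an unadjusted p under 0.05 there were 0 ribosomal proteins with other symbols, 1 assembly factor, 1 translation factor, 3 tRNA synthetases, 1 gene of mitochondrial DNA expression and 3 nuclear factors. Over all genes, 11.2% were lower and 9.2% higher at that threshold, and 37.5% were lower and 31.2% higher in both tables. Of 7 ribosomal proteins with other symbols, 2 were lower and 2 higher in both tables. Among them Dap3, the small subunit GTP-binding protein, was at 36.0 and 32.0 FPKM in MSC KO and 36.6 and 35.9 FPKM in WT, and Gadd45gip1 was at 76.9 and 66.9 FPKM against 60.3 and 57.7 FPKM. Of 20 assembly factors, 6 were lower and 7 higher in both, with a median of 0.04. Of 14 translation factors, 3 were lower and 7 higher in both, with a median of 0.10, and Tufm, the elongation factor that brings transfer RNA to the ribosome, was at 81.5 and 73.1 FPKM in MSC KO libraries against 71.1 and 69.2 FPKM in WT.

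Mtfmt, the enzyme that formylates the initiator transfer RNA, was at 9.81 and 13.9 FPKM in MSC KO libraries against 7.62 and 8.57 FPKM in WT (0.48 ± 0.12, SE, limma adjusted p = 0.195). Of 17 mitochondrial aminoacyl-tRNA synthetases, 6 were lower and 5 higher in both tables. Lars2, the leucyl enzyme, was at 167 and 247 FPKM in MSC KO libraries against 297 and 300 FPKM in WT, and Cars2, the cysteinyl enzyme, at 12.6 and 9.84 FPKM against 7.26 and 6.17 FPKM. These enzymes of the same pathway stood on opposite sides, with groups that did not overlap and limma adjusted p of 0.23 for Lars2 and 0.139 for Cars2. Of 13 genes of mitochondrial DNA expression, 4 were lower and 7 higher in both, with Tfam, which packages and transcribes mitochondrial DNA, at 16.6 and 16.1 FPKM in MSC KO libraries against 17.8 and 17.7 FPKM in WT. Polrmt, the mitochondrial RNA polymerase, was at 7.34 and 7.0 FPKM in MSC KO and 6.34 and 6.78 FPKM in WT.

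Among nuclear factors known to act on genes of mitochondria, 8 of 11 passed the level filter. Nrf1, which binds the motif named above, was at 12.2 and 11.5 FPKM in MSC KO libraries against 16.1 and 16.3 FPKM in WT, a difference of -0.42 ± 0.09 (SE, limma adjusted p = 0.175). Max, the partner of MYC, was at 48.8 and 52.9 FPKM in MSC KO libraries against 74.2 and 73.3 FPKM in WT (-0.53 ± 0.10, SE, limma adjusted p = 0.152). Pprc1, a coactivator of the PGC-1 family, was at 15.2 and 14.9 FPKM in MSC KO libraries against 10.3 and 11.9 FPKM in WT (0.41 ± 0.10, SE, limma adjusted p = 0.198). The groups of all 3 were apart, and none passed the test. Over all genes, both MSC KO values lay below both WT values for 32.5% and above them for 26.6%. Myc was at 101 and 119 FPKM in MSC KO, to either side of 104 and 110 FPKM in WT. Gabpa, Yy1 and Esrra differed by -0.05, -0.11 and 0.17, and Ppargc1a, Ppargc1b and Mycn were under the filter.

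The gene sets most like the mitochondrial ribosome are the other ribosome of the cell and the respiratory chain that it serves. Of 77 cytosolic ribosomal protein genes, 3 were lower and 56 higher in both tables, where 37.5% of all genes were lower and 31.2% higher. Their median difference was 0.07, with median levels of 3740 and 3890 FPKM in MSC KO libraries against 3570 and 3650 FPKM in WT. Of 76 oxidative phosphorylation subunits, 31 were lower and 7 higher in both, with a median of -0.05 and median levels of 274 and 241 FPKM in MSC KO and 268 and 274 FPKM in WT. In neither set did a gene pass the test, and at an unadjusted limma p under 0.05 there were 0 cytosolic ribosomal genes and 1 oxidative phosphorylation gene. Over all genes, 11.2% were lower and 9.2% higher at that threshold. The difference between the sets was not tested. Quantile normalization brought the cytosolic median to 0.005, below that of the mitochondrial ribosome at 0.0083, and without MSC KO 2 the oxidative phosphorylation median was 0.01. As deposited, the median of the mitochondrial ribosome stood between theirs at 0.01, and its table medians of 0.06 and -0.04 fell on either side of 0, as did those of oxidative phosphorylation at 0.02 and -0.12.

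**Figure D5:**
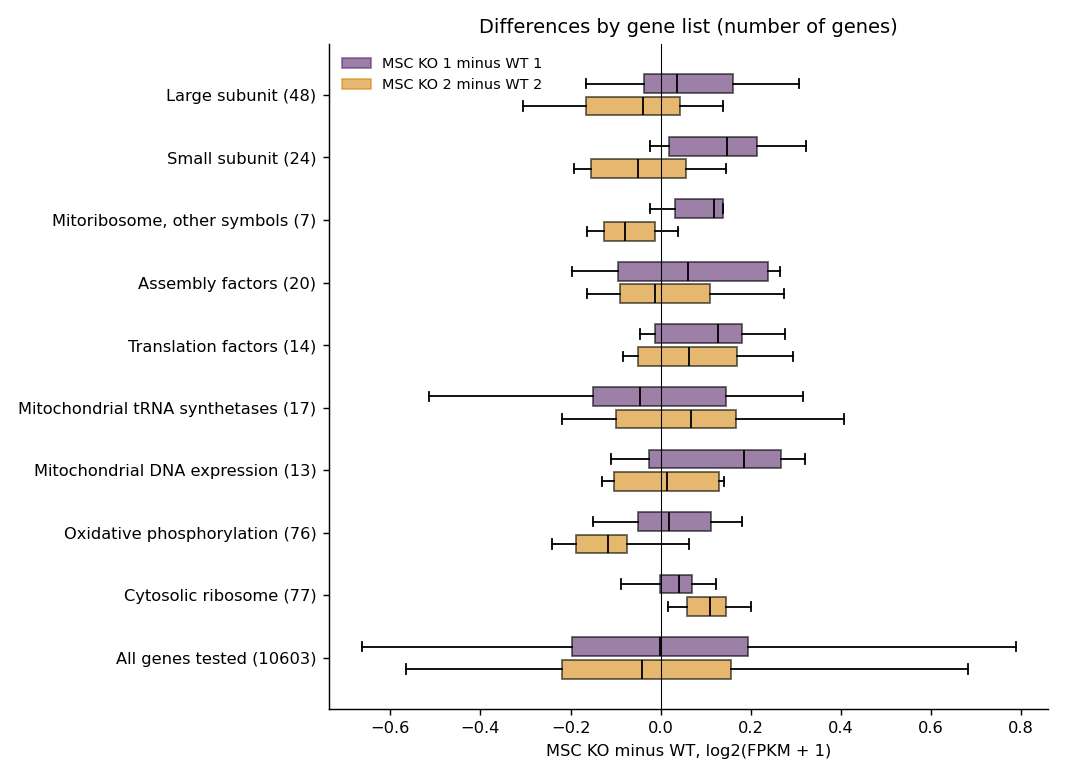
Difference of MSC KO from WT per gene in log2(FPKM + 1) for the gene lists named on the y axis, in the first table (purple) and the other (orange); boxes show the middle 50% with the median, whiskers the 5th to 95th percentiles, and the number of genes is in brackets. Both subunits have their median above 0 in the first table and below 0 in the other, and the boxes of the lists drawn are narrower than those of all genes tested.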

How the data were processed

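The authors deposited 2 tables of genes, each pairing the MSC KO and WT libraries of 1 number. TopHat and the mouse build mm9 are named in the submitters' processing notes; the TopHat version is not given in the sources used here. Deposited values, 1 per gene and library, were read as FPKM from the table layout. The deposited p-value and q-value of each gene are the authors' own test of 1 library against 1.

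Rows without a symbol, 1925 and 2325 of 24366 and 24752, held 49.9 to 54.1% of the summed FPKM and were left out. Of repeated symbols the row with the highest mean was kept. Depth was estimated from the smallest steps of low values in 30 to 50 genes with 1 transcript over 2500 bases (GENCODE M21, matched by name), and counting errors cover counting only. Genotypes were compared in limma 3.58.1 (R 4.3.3) on log2(FPKM + 1), a scale that understates changes of low genes, for genes with a mean of at least 1 FPKM, with the table as a block, a trended prior, a 2-sided test and Benjamini-Hochberg adjustment over 10603 genes at a threshold of 0.05. Degrees of freedom were 1 for the residual and 2.36 for the prior. On simulated data with 200 changed genes among 10603, this comparison recovered 0% of 2-fold and 73% of 4-fold changes, with 4 false calls in 77.

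Members and lists were chosen with earlier results of these data known. Members named are the 6 lower and 6 higher in both tables that rank first by the smaller of their table differences, the 4 highest and 4 lowest levels, the 4 largest differences of opposite sign, and 10 chosen by role. Other genes named are regulators and the extremes of each list. Neighbouring genes, the central protuberance genes and members called in a fit without a library were added after their values were seen. Promoters are RefSeq windows (GRCm38.p6). Alternatives were another pseudocount, filter, scaling, prior and block, and leaving out each library; genes at 10 FPKM or more were an alternative chosen after seeing the data.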

Additional observations from a re-analysis of the deposited data

How the results depend on the processing

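No member passed the test under any alternative that kept all 4 libraries, and leaving out each library in turn gave 0 to 8 members. The number of all genes called was 1, against 153 with no replicate block, 0 with no filter on low values, 7 with libraries rescaled to the same sum, 0 with quantile normalization, 0 with a prior without a trend, 26 without small RNA symbols, 2 among genes at 10 FPKM or more, and 0 to 2672 with a library left out. Members lower in both tables numbered 15, and members higher in both numbered 23. After rescaling to the same sum 29 were lower in both, and those higher in both became the fewer, as given above. With a library left out, the lone library of a label was set against each of the 2 libraries of the other label. Members lower in both of those differences numbered 18 to 35, and members higher in both 23 to 45. Over all genes the shares were 36.5 to 47.1% lower and 30.2 to 41.6% higher. Both differences share the lone library, so these counts are not comparable with 15 and 23. The median difference of members ranged from -0.04 to 0.06 when a library was left out and was -0.03 after rescaling to the same sum. Members at an unadjusted p under 0.05 numbered 2. They numbered 5 with no replicate block, 6 with no filter on low values, 5 with quantile normalization and 1 with a prior without a trend. The shares of all genes under these alternatives are not given, so these counts have no background. The causes were not tested.

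The block follows from the tables, each of which holds a WT and an MSC KO library of the same number. No label says that the number marks a shared batch, and the deviations of same-numbered libraries correlated at 0.06 over 10603 genes and at -0.23 over the 73 members. With no replicate block 0 members passed, the lowest adjusted p by limma being 0.0786 for Mrpl13. For 31 named members under 14 alternatives, 20 of 434 differences had the opposite sign, in 10 members, 5 of them with no library left out. Depth was estimated and not given, and 2 libraries a group with 1 residual degree of freedom limit the test.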
